A study of Mus musculus with 2 samples.

Results

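The cyclins, cyclin-dependent kinases (CDKs), CDK inhibitors, retinoblastoma (RB) proteins and E2F factors are followed here through 44 genes of the mouse lung, chosen by name from a table of 41709 genes. All 44 were found in the deposited tables by their NCBI gene numbers, and 42 held at least 50 reads in at least 1 library. Polyadenylated RNA of whole lung from C57BL/6 embryos at E14.5, when the airways branch, was sequenced in 1 library of Prmt5 knockdown lungs, titled Shh;Prmt5, and 1 library of control lungs described as wild type. For either library, RNA of 7 lungs was pooled. The labels do not say how Prmt5 or Shh was altered, in which cells, or how the knockdown was driven. With 1 library per group there is no replicate check and no p-value, and every difference below compares these libraries.

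Cyclins switch on CDKs, and the D-type cyclins with CDK4 and CDK6 begin the phosphorylation of RB proteins that E-type cyclins with CDK2 complete. Phosphorylated RB proteins let go of E2F factors, which then turn on the genes of DNA synthesis, while cyclin A and cyclin B with CDK1 drive mitosis. CIP/KIP and INK4 inhibitors hold the kinases back when cells leave the cycle. Most of the other cyclins and CDKs act in transcription, several by phosphorylating RNA polymerase II, and CDK7 also activates CDKs of the division cycle. In cultured cells PRMT5, a symmetric arginine methyltransferase, is known to methylate E2F1, and cyclin D1 with CDK4 is known to phosphorylate its partner MEP50. In the embryonic lung, dividing cells lie in the epithelial tips and in the mesenchyme around them.

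Reads were divided by library sizes scaled with the trimmed mean of M values, and each ratio is knockdown over control with a prior count of 0.5. A gene was called higher from a ratio of 1.5 upward, and lower from the inverse of that downward, provided that the exact 95% interval of the counts excluded 1. Intervals cover counting error only, and the read minimum of 50 decided which genes were considered. The knockdown library held 25829281 counted reads and the control library 22581490. Prmt5 (NCBI gene 27374, chromosome 14, 54507182 to 54517470) held 2127 knockdown and 2704 control reads, a log2 ratio of -0.43 (-0.51 to -0.35) that is 1.35-fold lower and short of the rule.

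Marker genes of several cell types also differed between the libraries. Red blood cell genes, 11 of 12 matched and all 11 higher, took 2.37% of knockdown reads against 0.653% of control reads, with a median log2 ratio of 4.43 and no matched gene at 0 reads. Heart muscle (12 of 12), skeletal muscle (10 of 10) and liver genes (11 of 11 measured, Apoc3 at 0 control reads not among them) were higher throughout, at 0.730%, 0.110% and 1.18% of knockdown reads against 0.0261%, 0.00314% and 0.00951% of control reads. Immune genes were higher in 9 of 10 (0.0330% of knockdown and 0.0161% of control reads), and thymocyte genes in all 5 measured, with Cd3d, Cd3g and Ptcra at 0 in the control library and Cd8b1 at 0 in the knockdown library. Lung epithelium genes were lower in 11 of 15, with the rest not past the rule, and took 0.0641% of knockdown reads against 0.186% of control reads. Lung mesenchyme genes were lower in 6 of 11 (0.967% of knockdown and 0.915% of control reads) and endothelial genes in 5 of 10 (0.0723% of knockdown and 0.118% of control reads). These lists hold defining markers such as Nkx2-1 for the lung epithelium, which had 895 reads in the knockdown and 7550 in the control library. In pooled whole tissue, fewer cells of a type and less RNA per cell cannot be told apart.

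Most of the 42 measured genes differed little between the libraries, while 10 genes passed the rule. E2f2, Rb1, Cdkn2d, Ccnd3, Cdkn1c and E2f4 were higher in the knockdown library, and E2f7, Ccnd1, E2f3 and Cdk13 were lower. The 6 higher genes are 14.3% of the measured members, where 20.7% of all 14569 measured genes were higher, and the 4 lower genes are 9.52%, where 12.3% of all were lower. In either direction 10 of 42 passed, or 23.8%, against 33.0% of all measured genes. That gap was not seen among genes with at least 500 reads in at least 1 library. There 10 of 38 members passed, a slightly larger share than the 24.3% of all such genes. The members' median log2 ratio was -0.07, beside -0.01 for all measured genes. On the log2 scale 25 of the 42 lay within 0.3 of no change (59.5%, against 43.3% of all measured genes). Regardless of sign, the median log2 ratio was 0.22 for the 42 members and 0.36 for all measured genes. It was 0.30 for all genes with at least 500 reads. The split of 6 higher to 4 lower moved to 5 and 5 when libraries were scaled by their total counts, which lowered the median of all genes by 0.11, and to 3 and 0 at a ratio of 2. Of all genes called, 62.7% were higher here, 52.3% after scaling by total counts, 53.0% when FPKM with a pseudocount of 0.1 replaced the counts, and 74.4% at a ratio of 2.

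**Figure D1:**
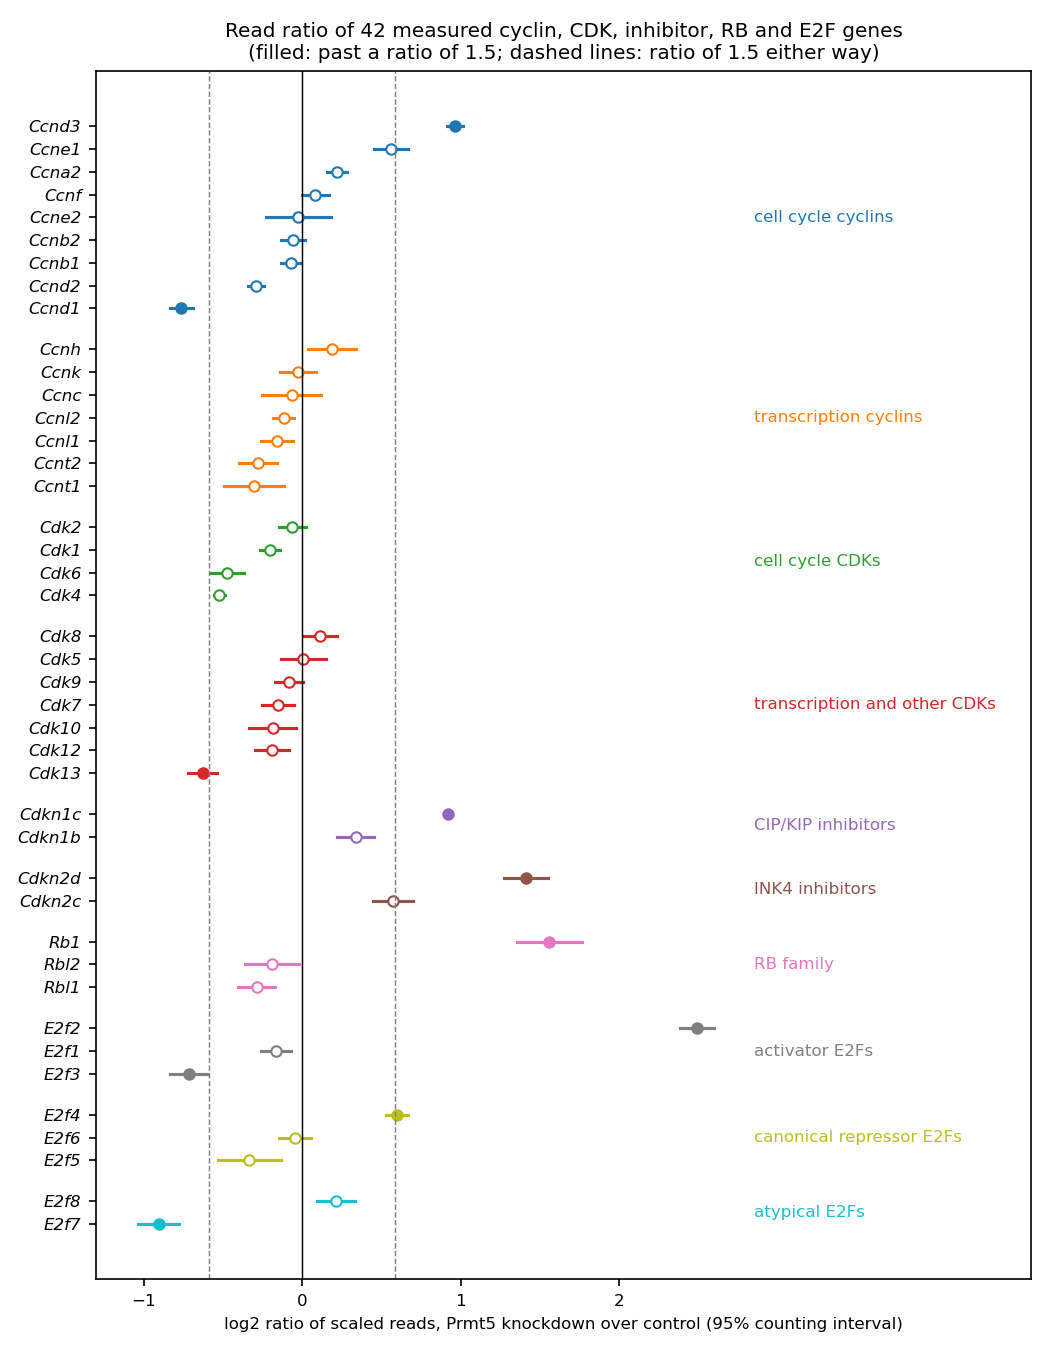
Log2 ratio of scaled reads, Prmt5 knockdown over control, for the 42 measured genes, grouped by role and ordered within each group. Points are single-library ratios, bars are 95% counting intervals, and filled points are past a ratio of 1.5. E2f2 lies farthest to the right at 2.49 and E2f7 farthest to the left at -0.90, while the transcription cyclins stay between -0.31 and 0.19.

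Levels can be compared between genes as FPKM, the fragment count per kilobase of gene length and per library total as the authors computed it. Cdkn1c, an imprinted CIP/KIP inhibitor, and Cdk4, the main kinase of the D-type cyclins here, were the most abundant members in both libraries. Cdkn1c stood at 716 FPKM in the knockdown and 408 in the control library, and Cdk4 at 367 in the knockdown and 568 in the control library, so that Cdkn1c led in the knockdown and Cdk4 in the control library on this scale. Ccnd3 came next in both, at 194 FPKM in the knockdown and 107 in the control library. Among the least abundant of the 42 measured members in both libraries were Rbl2 (4.35 knockdown, 5.35 control), Cdk6 (4.41 knockdown, 6.60 control) and Ccne2 (5.44 knockdown, 5.97 control). Rb1 (9.21 knockdown, 3.37 control) ranked 32 of the 44 genes in the knockdown library and 42 in the control library. E2f2 changed place most plainly, ranking 12 of the 44 genes by FPKM in the knockdown library and 37 in the control library. These levels depend on the gene length, and the authors' lengths ran from 0.210 (Ccnd3) to 2.05 times (Cdk7) the union of a member's annotated exons, with a median of 0.634. With the exon union as length, a setting chosen after seeing the data, Cdkn1c lay above Cdk4 in both libraries, with 685 FPKM for Cdkn1c and 143 for Cdk4 in the knockdown library and 390 for Cdkn1c and 222 for Cdk4 in the control library. Ccnd3 then ranked 6 of 44 in the knockdown and 12 in the control library, and E2f2 ranked 8 in the knockdown and 32 in the control library. The ratio of a gene between the libraries does not involve its length.

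**Figure D2:**
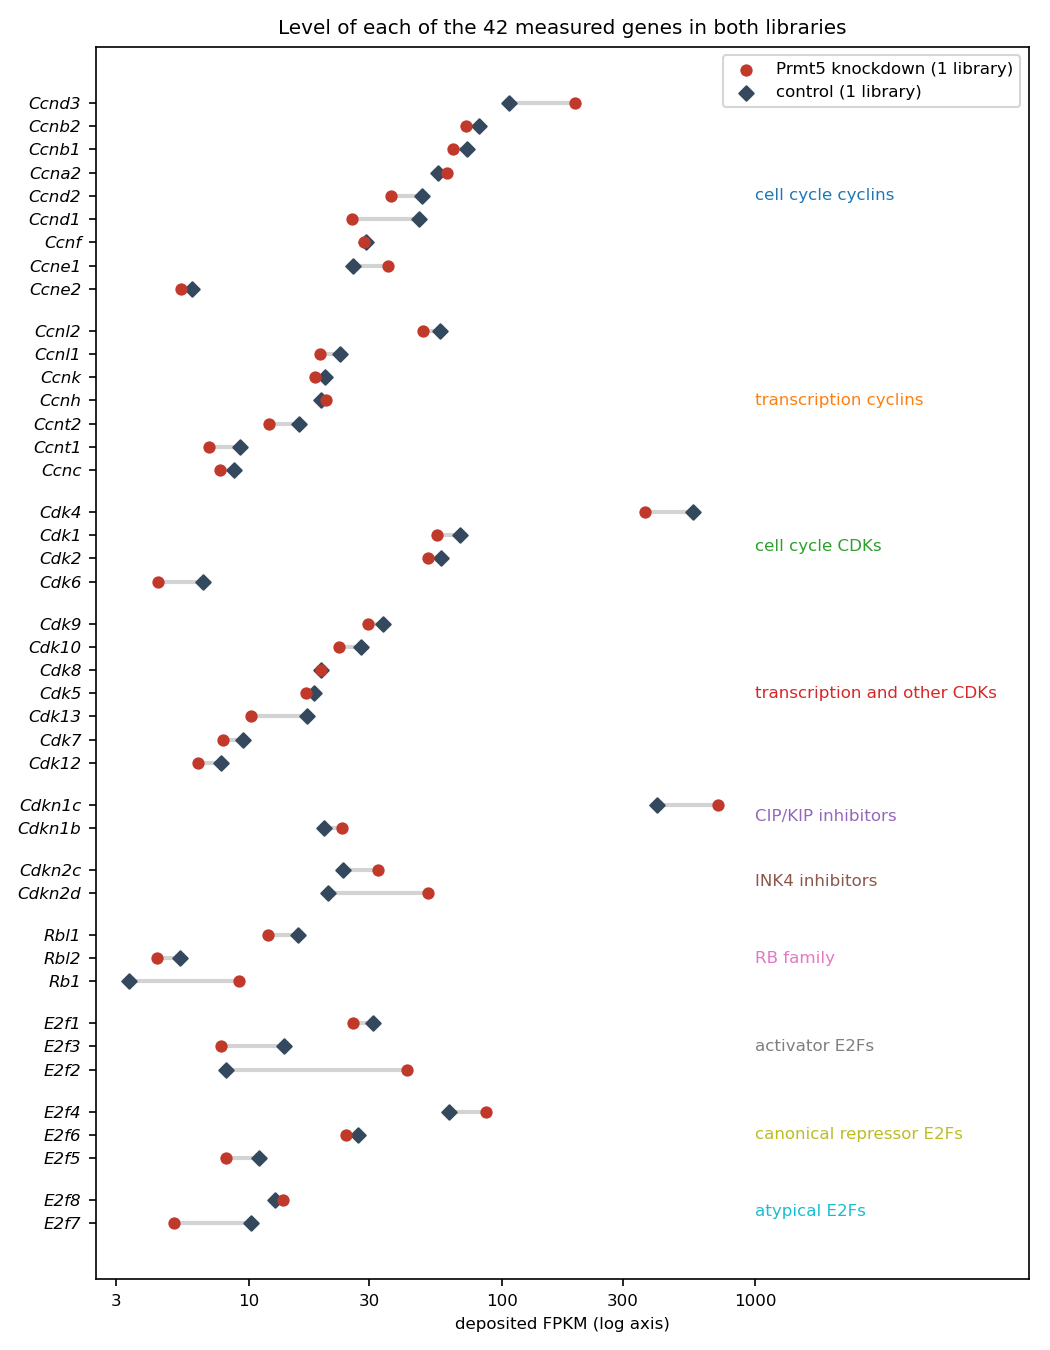
Deposited FPKM on a log axis for the 42 measured genes in the Prmt5 knockdown library (circles) and the control library (diamonds), 1 library each. Grey lines join the 2 values of a gene. Cdkn1c and Cdk4 lie to the right of all others, and the longest line is that of E2f2, at 42.4 FPKM in the knockdown and 8.15 in the control library.

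Among the 9 cyclins of the division cycle, the D-type cyclins split in direction, while none of the later cyclins passed the rule. Ccnd3 (NCBI gene 12445, chromosome 17, 47505051 to 47599689), the D-type cyclin that blood cell lineages rely on, had 9205 reads in the knockdown and 4446 in the control library. It was 1.95-fold higher (log2 0.97, 0.91 to 1.02). Ccnd1 (NCBI gene 12443, chromosome 7, 144929931 to 144939831), the D-type cyclin that many growth signals induce, had 2547 reads in the knockdown and 4071 in the control library. It was 1.69-fold lower (log2 -0.76, -0.83 to -0.69). The strand setting of the counting is not given in the sources used here, and 23.4% of the annotated Ccnd1 exons overlap LTO1 on the other strand, so reads of these genes cannot be told apart there. Ccnd2, the third D-type cyclin, had 5720 reads in the knockdown and 6596 in the control library, a log2 ratio of -0.29 (-0.34 to -0.24) that did not pass the rule.

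The ratio of one gene's reads to another's within a library needs no scaling, and on this measure the D-type cyclins moved apart. Ccnd3 had 3.61 reads for each read of Ccnd1 in the knockdown library and 1.09 in the control library, a change of 3.31-fold (95% log-odds interval 3.11 to 3.52). Against Ccnd2, the Ccnd3 ratio was 1.61 in the knockdown and 0.674 in the control library, a change of 2.39-fold (2.27 to 2.51). By FPKM, Ccnd3 made up 75.6% of the summed D-type cyclins in the knockdown library and 52.9% in the control library, and Ccnd1 10.04% in the knockdown and 23.2% in the control library. The summed D-type cyclins came to 256 FPKM in the knockdown and 202 in the control library. With the exon union as length these values changed: Ccnd3 held 47.7% of the sum in the knockdown and 24.5% in the control library, Ccnd1 held 24.6% in the knockdown and 41.7% in the control library, and the sum was 85.1 in the knockdown and 91.8 in the control library, lower instead of higher.

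Ccne1, the E-type cyclin that starts DNA replication with CDK2, lay just under the rule. It had 1791 reads in the knockdown and 1145 in the control library (log2 0.56, 0.45 to 0.67), and its partner gene Ccne2 had 402 knockdown and 386 control reads (log2 -0.03, -0.23 to 0.18). The ratio of Ccne1 to Ccne2 was 4.46 in the knockdown and 2.97 in the control library, a change of 1.502-fold (1.28 to 1.76). Ints8 overlaps 17.4% of the annotated Ccne2 exons on the other strand. The cyclins of S phase and mitosis were nearly level. Ccna2, active from S phase to mitosis, had 4821 reads in the knockdown and 3906 in the control library (log2 0.22), and the mitotic cyclins Ccnb1 (-0.07) and Ccnb2 (-0.06) and the ubiquitin ligase subunit Ccnf (0.08) lay within 0.1 of no change. Ccnb1 had 3840 reads in the knockdown and 3804 in the control library, and Ccnb2 had 2868 knockdown and 2820 control reads.

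None of the 4 CDKs of the division cycle passed the rule, and all 4 log2 ratios were below 0, as were 7371 of all 14569 measured genes. Cdk4 had 12011 reads in the knockdown and 16262 in the control library (log2 -0.52, -0.56 to -0.49), and Cdk6 had 1312 knockdown and 1718 control reads (log2 -0.47, -0.58 to -0.37). Both partner the D-type cyclins, and their ratio to each other was 9.15 in the knockdown and 9.47 in the control library, a change of 0.967-fold whose interval (0.897 to 1.04) includes 1. Of the annotated Cdk4 exons, 19.7% overlap Tspan31 on the other strand. Cdk4 passed the rule as lower with total-count scaling (-0.63) and with FPKM at either pseudocount (-0.63 each). Cdk1, the mitotic kinase, had 4080 reads in the knockdown and 4429 in the control library (log2 -0.20). Cdk2, the kinase of cyclins E and A, had 2245 knockdown and 2211 control reads (log2 -0.06), with an interval (-0.15 to 0.02) that includes 0.

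The cyclins and kinases of transcription were close to level, with 1 exception. Of the 7 transcription cyclins none passed, with log2 ratios from -0.31 for Ccnt1, a partner of CDK9, to 0.19 for Ccnh, a partner of CDK7. Ccnt1 had 428 reads in the knockdown and 499 in the control library, and Ccnh had 791 knockdown and 656 control reads. Between them lay Ccnc of the Mediator complex (-0.07), Ccnk, the partner of CDK12 and CDK13 (-0.02), the splicing-linked cyclins Ccnl1 (-0.16) and Ccnl2 (-0.12), and Ccnt2, a further CDK9 partner (-0.28). Cdk13 (NCBI gene 69562, chromosome 13, 17711676 to 17805212), a partner of cyclin K that phosphorylates RNA polymerase II, had 1722 reads in the knockdown and 2509 in the control library. It was 1.54-fold lower (log2 -0.63, -0.72 to -0.54), while its close relative Cdk12 had 1307 knockdown and 1406 control reads (log2 -0.19). The other kinases of this group ran from Cdk10 (-0.18) through the CDK-activating kinase Cdk7 (-0.15), the transcription elongation kinase Cdk9 (-0.08) and the neuronal kinase Cdk5 (0.01) to Cdk8 of the Mediator complex (0.11), at 1631 knockdown and 1422 control reads.

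Every measured CDK inhibitor among the members had a log2 ratio above 0, and 2 of 4 passed the rule. Of all 14569 measured genes, 7198 were above 0 and 20.7% passed as higher. Cdkn1c (NCBI gene 12577, chromosome 7, 143458339 to 143461059) reached 36100 knockdown and 17975 control reads. It was 1.89-fold higher (log2 0.92, 0.90 to 0.95), although 30.7% of its annotated exons overlap Gm44732 on the other strand. Cdkn1b, the CIP/KIP inhibitor that marks resting cells, had 1448 reads in the knockdown and 1081 in the control library (log2 0.34, 0.22 to 0.45) and did not pass. Cdkn2d (NCBI gene 12581, chromosome 9, 21288459 to 21291421), an INK4 inhibitor of CDK4 and CDK6, had 1636 reads in the knockdown and 580 in the control library. It was 2.66-fold higher (log2 1.41, 1.27 to 1.55), and its relative Cdkn2c, with 1315 knockdown and 835 control reads, lay just under the rule (log2 0.57, 0.44 to 0.70).

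The remaining INK4 genes were barely expressed. Cdkn2a, which encodes an INK4 inhibitor and the p53 activator ARF, had 1 read in each library, and Cdkn2b had 29 reads in the knockdown and 15 in the control library. Neither reached 50 reads, and counts this low leave the Cdkn2b ratio between -0.08 and 1.87 on the log2 scale. The summed INK4 genes came to 84.2 FPKM in the knockdown and 44.7 in the control library, and Cdkn2d made up 60.5% of them in the knockdown and 46.2% in the control library. Cdkn2d had 1.24 reads for each read of Cdkn2c in the knockdown and 0.695 in the control library, a change of 1.79-fold (1.58 to 2.04). Cdkn1a, the CIP/KIP inhibitor that p53 induces and that is not among the 44 genes, had 1480 knockdown and 153 control reads (log2 3.19), yet only 1.97% of the summed CIP/KIP FPKM in the knockdown and 0.409% in the control library. Cdkn1c held 94.94% of that sum in the knockdown and 94.96% in the control library.

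Rb1 stood apart from the other RB family genes. Rb1 (NCBI gene 19645, chromosome 14, 73192858 to 73325951), the founding tumour suppressor of the family, had 803 reads in the knockdown and 257 in the control library. It was 2.94-fold higher (log2 1.56, 1.36 to 1.77), and 9.33% of all measured genes had a larger ratio. Rbl1, which works mainly with E2F4 in cycling cells, had 1143 reads in the knockdown and 1315 in the control library (log2 -0.29, -0.40 to -0.17). Rbl2, its counterpart in resting cells, had 548 knockdown and 589 control reads (log2 -0.19, -0.36 to -0.02). The family's summed level was 25.5 FPKM in the knockdown and 24.4 in the control library, and the share of Rb1 in it was 36.1% in the knockdown and 13.8% in the control library (33.7% of the knockdown and 12.6% of the control sum with the exon union as length). Rb1 gained 3.59-fold on Rbl1 (3.06 to 4.22) and 3.36-fold on Rbl2 (2.80 to 4.03). Lpar6 and Rcbtb2 overlap 14.9% of the annotated Rb1 exons on the other strand.

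**Figure D3:**
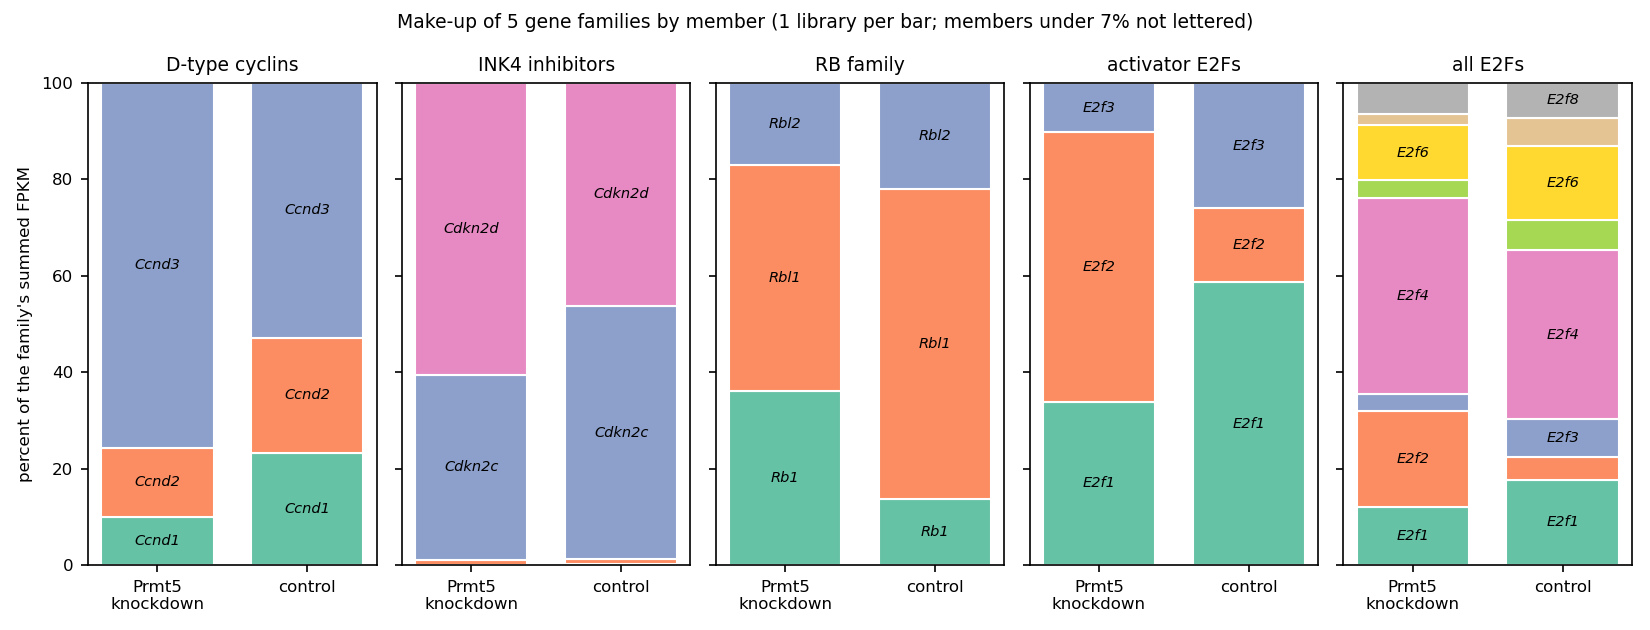
Percent of a family's summed FPKM held by each member, for the D-type cyclins, INK4 inhibitors, RB family, activator E2Fs and all E2Fs, with Prmt5 knockdown left of control in each panel and 1 library per bar. E2f2 fills 55.9% of the activator E2Fs in the knockdown bar and 15.4% in the control bar, and Ccnd3 fills 75.6% of the D-type cyclins in the knockdown bar and 52.9% in the control bar.

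E2F factors gave both the highest and the lowest ratio of all 42 genes. E2f2 (NCBI gene 242705, chromosome 4, 136172274 to 136196057), an activator E2F that in mice is known for its part in the last divisions of red cell precursors, had 4802 reads in the knockdown and 807 in the control library. It was 5.61-fold higher (log2 2.49, 2.38 to 2.60), and 5.88% of all measured genes had a larger ratio. E2f3 (NCBI gene 13557, chromosome 13, 29906575 to 29986064), a second activator, had 989 reads in the knockdown and 1533 in the control library and was 1.64-fold lower (log2 -0.72, -0.83 to -0.60). E2f1, the activator that also induces cell death genes, had 1806 knockdown and 1908 control reads (log2 -0.16, -0.26 to -0.07). E2f2 thus held 55.9% of the activators' summed FPKM in the knockdown and 15.4% in the control library, and E2f1 33.9% in the knockdown and 58.6% in the control library. Relative to E2f1 the reads of E2f2 changed 6.29-fold (5.70 to 6.94), and relative to E2f3 9.22-fold (8.27 to 10.3).

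Of the repressor E2Fs, E2f4 and E2f7 passed in opposite directions. E2f4 (NCBI gene 104394, chromosome 8, 105297663 to 105305370), the abundant repressor that mouse fetal red cell formation requires, had 4457 reads in the knockdown and 2772 in the control library. It was 1.52-fold higher (log2 0.60, 0.53 to 0.67), the called member nearest to the rule, and it did not pass with total counts (0.49), with totals that left out other-tissue genes (0.55) and with FPKM at pseudocounts of 0.1 (0.49) and 1 (0.48). E2f7 (NCBI gene 52679, chromosome 10, 110745439 to 110787384), an atypical repressor that binds DNA without a DP partner, had 739 reads in the knockdown and 1305 in the control library. It was 1.87-fold lower (log2 -0.90, -1.04 to -0.77), whereas the second atypical factor, E2f8, had 1242 knockdown and 1011 control reads (log2 0.21, 0.09 to 0.33). The ratio of E2f8 to E2f7 was 1.68 in the knockdown and 0.775 in the control library, a change of 2.17-fold (1.92 to 2.45). Gm2788 overlaps 11.2% of the annotated E2f8 exons on the other strand. E2f5 (394 knockdown and 468 control reads, log2 -0.33) and E2f6 (1577 knockdown and 1536 control reads, log2 -0.05) did not pass.

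Several of the higher genes have known roles in red cell precursors, and red blood cell markers were higher in the same library (median log2 4.43). Heart muscle (5.24), skeletal muscle (5.27), thymocyte (6.62) and liver markers (7.44) were higher by more, and immune markers (1.27) by less. Cdkn2d and Cdkn1c, also higher, are not set beside any of these markers here. In mice E2f2, E2f4, Ccnd3 and Rb1 each take part in the divisions or the maturation of red cell precursors. Against their ratios of 5.61-fold, 1.52-fold, 1.95-fold and 2.94-fold, the erythroid transcription factors Klf1 had 3789 knockdown and 73 control reads (log2 5.60) and Gata1 had 2006 knockdown and 60 control reads (log2 4.97). Across the 11 matched red blood cell markers, log2 ratios ran from 1.09 for Hbb-bh1 to 6.05 for Hemgn. Tfdp2, a DNA-binding partner of E2Fs, was also higher, with 2662 knockdown and 1112 control reads (log2 1.17). As for the lower genes, Ccnd1 among them, 11 of 15 lung epithelium markers were also lower in the knockdown library. So were 6 of 11 lung mesenchyme markers and 5 of 10 endothelial markers. Of the epithelium markers, Epcam had 689 knockdown and 3348 control reads (log2 -2.36), while Krt8 (-0.12), Id2 (-0.09), Krt18 (0.11) and Krt19 (0.21) were not past the rule. Whether these cell types account for any of the ratios was not tested.

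The promoters of E2F and mitotic genes carry letters that E2F and related complexes are known to read, and 5 of them are shown because they belong to the activator and atypical E2Fs that passed the rule and to a kinase and a cyclin of mitosis that did not. They are 300 base windows from RefSeq on GRCm38.p6, running 5′ to 3′ along the gene from 250 bases before to 50 after the first listed start. Capitals mark the E2F motif (TTTCCCGC, TTTCGCGC, TTTGCCGC or TTTGGCGC), the CHR element (TTTGAA or TTCGAA) and the CCAAT box, each on either strand. The windows lie at chr4:136172024-136172323 (plus strand), chr13:29986014-29986313 (minus strand), chr10:110745189-110745488 (plus strand), chr10:69352863-69353162 (minus strand) and chr9:70421505-70421804 (minus strand).
E2f2: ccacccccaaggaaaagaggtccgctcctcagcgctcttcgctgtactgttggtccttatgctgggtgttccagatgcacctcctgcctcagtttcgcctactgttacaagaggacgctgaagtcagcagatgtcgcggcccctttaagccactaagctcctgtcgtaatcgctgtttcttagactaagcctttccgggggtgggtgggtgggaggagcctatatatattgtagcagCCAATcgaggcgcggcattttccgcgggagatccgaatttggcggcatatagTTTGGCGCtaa
E2f3: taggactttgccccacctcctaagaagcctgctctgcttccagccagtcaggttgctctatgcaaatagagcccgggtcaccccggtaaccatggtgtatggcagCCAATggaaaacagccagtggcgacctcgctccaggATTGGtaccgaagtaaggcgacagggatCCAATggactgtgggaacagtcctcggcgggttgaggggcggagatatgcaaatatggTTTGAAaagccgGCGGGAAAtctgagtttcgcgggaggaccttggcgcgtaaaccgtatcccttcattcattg
E2f7: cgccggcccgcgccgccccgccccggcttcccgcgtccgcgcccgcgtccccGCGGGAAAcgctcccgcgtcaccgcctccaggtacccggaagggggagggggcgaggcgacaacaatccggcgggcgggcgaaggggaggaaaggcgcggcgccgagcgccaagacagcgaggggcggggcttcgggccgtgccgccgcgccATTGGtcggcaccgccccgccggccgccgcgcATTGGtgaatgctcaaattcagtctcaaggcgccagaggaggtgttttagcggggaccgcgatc
Cdk1: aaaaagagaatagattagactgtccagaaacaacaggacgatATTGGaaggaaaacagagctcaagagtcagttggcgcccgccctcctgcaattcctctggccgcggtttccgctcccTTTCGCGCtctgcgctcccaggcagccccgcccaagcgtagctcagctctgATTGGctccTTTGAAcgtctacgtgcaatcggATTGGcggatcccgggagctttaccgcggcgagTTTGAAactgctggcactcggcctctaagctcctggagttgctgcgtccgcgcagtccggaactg
Ccnb2: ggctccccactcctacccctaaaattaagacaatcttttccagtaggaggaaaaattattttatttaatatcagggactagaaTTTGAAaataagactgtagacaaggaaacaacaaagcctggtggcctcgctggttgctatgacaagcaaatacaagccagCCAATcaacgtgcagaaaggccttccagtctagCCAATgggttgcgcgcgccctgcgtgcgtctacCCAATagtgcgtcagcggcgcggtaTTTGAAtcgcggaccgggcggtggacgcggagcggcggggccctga

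E2F letters lay in the windows of both the higher E2f2 and the lower E2f3 and E2f7. In E2f2 the match TTTGGCGC ran from base 40 to 47 after the start, with a CCAAT box at -13 to -9. E2f3 had GCGGGAAA, the same motif on the other strand, at -11 to -4, beside a CHR element at -23 to -18 and 3 CCAAT boxes. In E2f7 the match GCGGGAAA lay farther up, at -198 to -191. Cdk1 held all 3 kinds, with the E2F match TTTCGCGC at -131 to -124 and CHR elements at -71 to -66 and -15 to -10. Ccnb2 had no E2F letters but 3 CCAAT boxes and CHR elements at -167 to -162 and at 5 to 10 after the start.

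Promoter windows were listed for 34 of the 44 genes, 39 windows in all. Rb1, E2f4, Cdkn1c and Ccnd1 were among the genes without one. E2F letters were in 7 of the 39 windows (17.9%), against 744 of 32851 windows of all genes (2.26%). CHR letters were in 8 of 39 (20.5%) and 19.2% of all windows, and the CCAAT box in 21 of 39 (53.8%) and 37.4% of all. The 7 genes with E2F letters were E2f2 (log2 2.49), E2f3 (-0.72), E2f7 (-0.90), Cdk1 (-0.20), Cdk2 (-0.06), Rbl1 (-0.29) and Cdkn2a, the last with too few reads for a ratio. Their ratios thus went both ways. A match describes letters in this window and is not evidence of a bound site.

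Among 60 other genes of the pathway, 52 were measured, of which 6 were higher and 7 lower, with a median log2 ratio of -0.16. Of all measured genes, 20.7% were higher and 12.3% lower. The higher genes were Cdkn1a (3.19), the p53-induced cyclin Ccng1 (3131 knockdown and 861 control reads, 1.78), the CDK-like kinase Cdkl1 (1.49), the E2F partner Tfdp2 (1.17), the CDK-activating phosphatase Cdc25b (4229 knockdown and 1783 control reads, 1.16) and the phosphatase Cdkn3 (0.65). Lower were Ccno, a cyclin of multiciliated cell formation (17 knockdown and 120 control reads, -2.87), Ccnjl (-1.29), Ccnj (-0.92), the mitotic transcription factor Foxm1 (1849 knockdown and 3054 control reads, -0.81), Cdk18 (-0.74) and the kinases Wee1 (-0.70) and Pkmyt1 (-0.70), which block CDK1. By role, 3 of 9 inhibitors and regulators of CDK phosphorylation were higher and 2 lower, while none of 9 measured genes of cyclin turnover passed. Tfdp1, the main E2F partner, had 3961 knockdown and 4594 control reads (log2 -0.30).

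Few genes of DNA replication and mitosis passed the rule, where 20.7% of all measured genes were higher and 12.3% lower. Most of these genes had at least 500 reads in at least 1 library, and 24.3% of all genes at that depth passed in either direction. Of 30 DNA replication genes 2 were higher, Cdc45 (1.80) and Rrm2 (0.79), and 1 was lower, Pole (-0.63), with a median of 0.06 that turned to -0.05 under total counts. The Mcm2 to Mcm7 helicase genes lay between -0.22 for Mcm5 and 0.14 for Mcm6, neither past the rule. Of 30 mitosis genes 1 was higher, Kif11 (1.34), and 2 were lower, Ttk (-0.61) and Kif20a (-0.60), with 21 ratios below 0 and a median of -0.26 that was -0.37 under total counts. The proliferation marker Mki67 had 16971 knockdown and 11922 control reads (log2 0.43). Together the replication genes took 0.396% of knockdown and 0.423% of control reads, and the mitosis genes 0.381% of knockdown and 0.448% of control reads. The 44 cyclin, CDK, inhibitor, RB and E2F genes took 0.509% of knockdown and 0.479% of control reads. Of these reads Cdkn1c held 36100 of 131517 in the knockdown and 17975 of 108132 in the control library. The higher share of the 44 genes therefore rests on Cdkn1c.

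**Figure D4:**
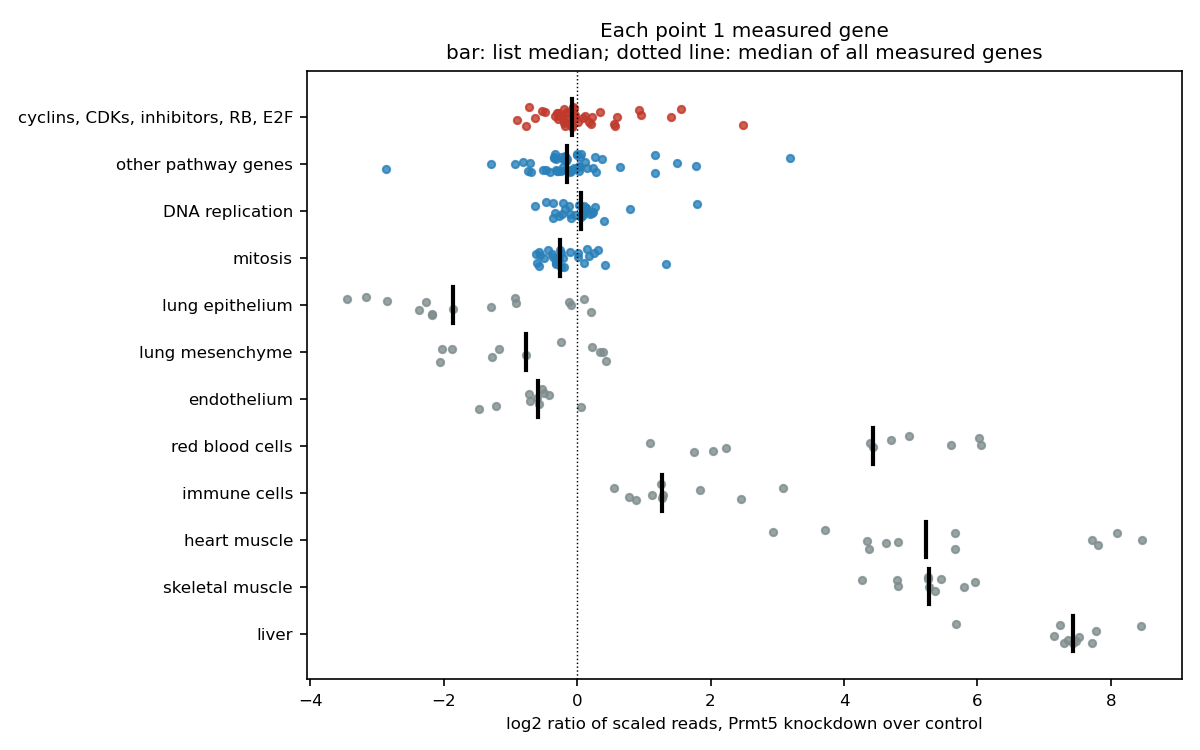
Log2 ratio of scaled reads, Prmt5 knockdown over control, with 1 point per measured gene and a bar at each list's median. The cyclin, CDK, inhibitor, RB and E2F genes (median -0.07), other pathway genes (-0.16), replication genes (0.06) and mitosis genes (-0.26) lie around the median of all genes (dotted), while red blood cell (4.43), muscle (5.24 and 5.27) and liver genes (7.44) lie far to the right.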

How the data were processed

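RNA was extracted with TRIZOL and libraries made with the NEBNext Ultra kit, per the labels' protocols. Bowtie2 2.2.3, TopHat2 2.0.12, HTSeq 0.6.1 and mm10 are named in the submitters' processing notes, while the sources used here do not give the annotation, the strand setting or the treatment of multiply mapped reads. The authors deposited raw read counts per gene and FPKM values, which equal the deposited count over a gene length and the library total. Symbols came from RefSeq genes of GRCm38.p6, the assembly behind mm10, for 40269 of 41709 entries, and these held 99.8% of the reads of either library.

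From the counts, effective library sizes (edgeR 4.0.16, trimmed mean of M values, factors 0.963 for knockdown and 1.04 for control) gave ratios with a prior count of 0.5 and exact Clopper-Pearson 95% intervals. Ratios between 2 genes of a library carry log-odds intervals. Such intervals cover counting error only, and PCR copies are not independent molecules. Exon overlaps came from GENCODE M21, whose exon unions differ from the authors' lengths. All members were accounted for, with reads given for those past the rule and for the extremes of each role group, and other genes were named when past the rule. Genes set beside these for their role or level (Mki67, Tfdp1, Klf1, Gata1, Epcam and Nkx2-1) were chosen after their values were seen. The members and lists were chosen with earlier results of these data known. Other settings tried were scaling (totals, DESeq2 1.42.0 size factors, totals without other-tissue genes), prior count, FPKM pseudocount, read minimum, ratio and interval, and, chosen after seeing the data, the exon union as gene length for levels and family shares. The calculation was run on simulated counts that held counting error only, which could not test the library scaling or the spread between pools.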

Additional observations from a re-analysis of the deposited data

How the results depend on the processing

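Direction held for all 10 called members under every other scaling, prior count and pseudocount tried, and a read minimum cannot change it. The higher count was 5 with total counts, FPKM or totals without other-tissue genes, 8 with DESeq2 size factors, which added Ccne1 (0.59) and Cdkn2c (0.60), and 3 at a ratio of 2. The lower count was 5 with total counts or FPKM, which added Cdk4, and 0 at a ratio of 2. The median of the measured members moved to -0.18 with total counts and to -0.18 with FPKM at a pseudocount of 0.1, along with the median of all genes (-0.12 in each). Taking the exon union as gene length, chosen after seeing the data, changed levels and family shares most for Ccnd3 among the D-type cyclins, as given above. Of 378 single-gene comparisons with the main setting, 369 kept their call, 5 gained it and 4, all of E2f4, lost it. The comparisons at other read minima could not change a call, because every measured member met each minimum. Most kept calls are also of the 32 members that were not past the rule. A prior count of 5, read minima of 10 and 200, no read filter and no required interval left the counts at 6 and 4. Every measured member had at least 394 knockdown and 257 control reads, and the members' counting intervals had a median half-width of 0.11 on the log2 scale, while the spread between pools was not measured. No paired analysis was possible because each group has 1 library, and for the same reason no library could be left out.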

Other observations

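Low levels stood out for a pair of genes that dividing cells use. Skp2, the ubiquitin ligase subunit that marks Cdkn1b protein for breakdown, had 27 reads in the knockdown and 44 in the control library and stayed under the minimum of 50. Kif11, a motor of the mitotic spindle, had 250 knockdown and 93 control reads, or 1.004 FPKM in the knockdown and 0.427 in the control library, where Top2a, another mitotic gene, stood at 81.5 FPKM in the knockdown and 110 in the control library. The authors' length for Kif11, 9638 bp, is 1.29 times the union of its annotated exons. The Kif11 ratio of 2.53-fold (log2 1.34, 0.99 to 1.70) does not involve the length and rests on 93 control reads. These genes were picked after their values were seen.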
